A study of Mus musculus with 4 samples.

Results

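Ionotropic glutamate receptors are ion channels built of 4 subunits that open when they bind glutamate. Their genes fall into NMDA (Grin), AMPA (Gria) and kainate (Grik) classes. The 10 genes described here, Grin1, Grin2c, Grin2d, Grin3a, Gria2, Gria3, Gria4, Grik2, Grik4 and Grik5, were taken by symbol from the 22481 gene symbols of the table the authors deposited, and each had 1 row. The gene family was chosen by the KO against WT values of these same libraries, among them the decrease of Grin1, so all values of that comparison below are a description of the libraries and not independent evidence.

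The measurements were RNA sequencing of pancreatic islets from mice of the 129sv strain at 2 weeks of age. There were 2 libraries of the genotype labelled Ngn3Mettls KO (KO) and 2 of wild type (WT), with more than 400 islets in each pool. The labels do not spell out which exons were removed or which driver was used, and no other treatment is labelled. Separate animals or litters for the 2 pools of a genotype are not stated either, so p-values measure only the spread between these libraries, which may be technical.

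In neurons, NMDA receptors need the subunit encoded by Grin1, which binds the co-agonist glycine or D-serine, together with Grin2 subunits, which bind glutamate. AMPA receptors carry fast currents, and the Gria2 subunit, after RNA editing, makes them poorly permeable to calcium. Kainate receptors combine Grik2-type subunits, which form channels alone, with Grik4 or Grik5, which need such a partner. In mouse islets NMDA receptors have been described on beta cells, and in human islets AMPA and kainate receptors on alpha cells.

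Library depth was 4057724 to 5232258 estimated fragments after the authors' per-library scaling was divided out. Of 12789 genes that passed a filter on low counts, edgeR's quasi-likelihood test called 29, that is 0.227%, at an adjusted p under 0.05 (12 lower in KO, 0.0938%, and 17 higher, 0.133%). Levels are given as CPM, the estimated count scaled to a common library total after TMM normalisation, or as FPKM, which is also scaled to transcript length and is used wherever genes are compared with each other. The genes that the knockout label points to did not pass that test. Mettl3 stood at 18.6 and 17.1 CPM in the KO libraries against 29.3 and 17.1 CPM in the WT libraries, Mettl14 at 14.1 and 15.6 against 21.4 and 21.7 CPM, and Neurog3 at 6.28 and 9.03 against 4.82 and 7.17 CPM. Such gene-wide sums cannot show the loss of single exons. The islet markers were present, with Ins2 at 17215 to 32575 CPM over the 4 libraries.

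The strongest change of the family was in Grin1, the obligatory NMDA subunit gene, which was about 4 times lower in KO islets. Grin1 (ENSMUSG00000026959, chr2:25291181-25319187, minus strand, mm10) measured 8.37 and 8.78 CPM in the KO libraries (replicates 1 and 2) against 32.8 and 40.9 CPM in the WT libraries. Both KO libraries lay below both WT libraries, with 44 and 35 fragments behind the KO values and 170 and 177 behind the WT values. The means were 8.57 ± 0.291 CPM in KO and 36.9 ± 5.73 CPM in WT (SD, n = 2), a 4.30-fold difference. The log2 fold change, KO minus WT, was -2.10 ± 0.22 (SE), and edgeR's adjusted p over all 12789 genes was 0.0348. Of the 12 genes called lower, 4, Grin1 included, had a log2 fold change at or below this value. Leaving out KO replicate 2 kept the size (-2.12) and moved the edgeR adjusted p to 0.0552, and limma on log2(FPKM + 1) gave -1.68 with an adjusted p of 0.231. Over all alternatives the adjusted p of Grin1 ran from 1.86e-06 with DESeq2 to 0.471 with limma without a filter. In bulk RNA, fewer cells that express a gene and less of its RNA per cell cannot be told apart. The annotated gene Grin1os overlaps exons of Grin1 on the opposite strand. The library kit keeps the strand, but whether the counting used it is not given in the sources used here, and reads of both genes cannot be told apart if it did not.

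The other NMDA subunit gene with a substantial level, Grin2c, did not pass the test, and its values in KO and WT overlapped. Grin2c, which encodes a glutamate-binding subunit, measured 24.3 and 29.6 CPM in the KO libraries against 25.3 and 21.5 CPM in the WT libraries (log2 fold change 0.20 with an SE of 0.20 and an adjusted p of 0.732 in edgeR). The order of the pair per transcript length therefore differed between the genotypes. Grin1 stood at 1.80 and 1.83 FPKM against 4.78 and 5.61 FPKM for Grin2c in KO replicates 1 and 2, a ratio of 0.376 and 0.325. In WT replicates 1 and 2 Grin1 stood at 6.77 and 9.39 FPKM against 4.95 and 4.21 FPKM for Grin2c, a ratio of 1.37 and 2.23. Grin1 gave 26.2% and 23.3% of the FPKM summed over the 4 NMDA genes in KO and 57.2% and 68.1% in WT. The summed NMDA level was 6.86 and 7.86 FPKM in the KO libraries against 11.8 and 13.8 FPKM in the WT libraries, so it was lower in both KO libraries. These ratios and sums contain the Grin1 values and add no evidence to them.

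**Figure D1:**
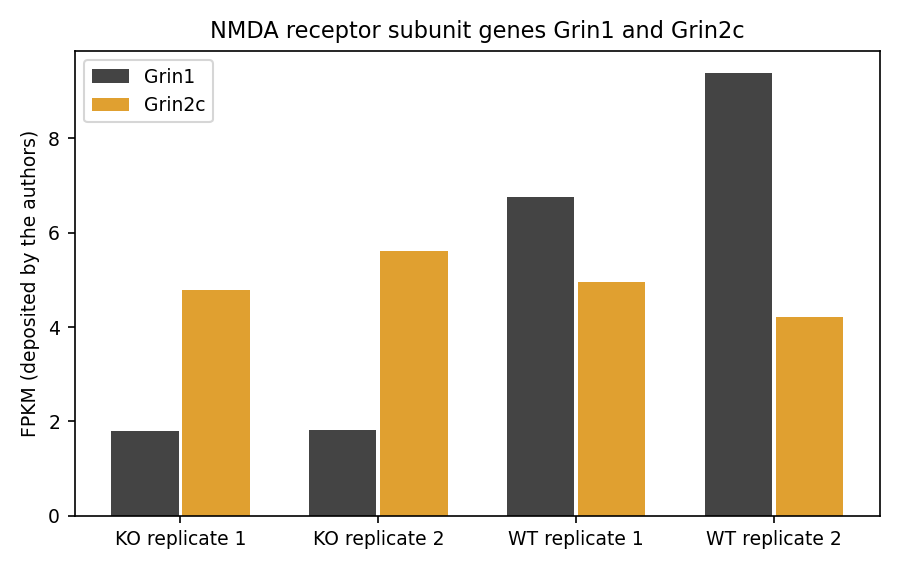
Bars give the FPKM of Grin1 (dark) and Grin2c (yellow) in each of the 4 islet libraries, as deposited by the authors. Grin1 lies below Grin2c in both KO libraries (1.80 and 1.83 FPKM) and above it in both WT libraries (6.77 and 9.39 FPKM), while Grin2c stays between 4.21 and 5.61 FPKM.

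Grin2d and Grin3a were near the limit of detection and were not tested. Grin2d, another glutamate-binding NMDA subunit gene, had 8 and 11 fragments in KO replicates 1 and 2 and 4 in each WT library, which is 1.52 and 2.76 CPM in the KO libraries against 0.772 and 0.925 CPM in the WT libraries. Both KO values lay above both WT values, but with so few fragments the counting error alone is large. Grin3a, which encodes a glycine-binding subunit, had 2 and 0 fragments in the KO libraries against 0 and 1 in the WT libraries. A count of 0 allows up to 0.753 CPM in KO replicate 2 and 0.579 CPM in WT replicate 1, taking 3 fragments as the limit, for counting error only.

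The upstream DNA of 3 of these genes is shown because Grin1 and Grin2c changed places in the level per length, and because Grin1 and Gria2 are known targets of the repressor REST, which silences neuronal genes outside neurons by binding RE1 elements. The letters are the 250 bases before the annotated start on the gene's strand, 5′ to 3′, from RefSeq on GRCm38.p6 (mm10), where 8 of the 10 genes had an entry. Capitals mark matches, on either strand, to GGGCGG (a GC box), CAGCACC and GGACAG (the left and right parts of the RE1 element) or TGCTGAC (the core bound by MAF factors). The windows are chr2:25319188-25319437 for Grin1, chr11:115267244-115267493 for Grin2c and chr3:80802836-80803085 for Gria2, all on the minus strand.
Grin1: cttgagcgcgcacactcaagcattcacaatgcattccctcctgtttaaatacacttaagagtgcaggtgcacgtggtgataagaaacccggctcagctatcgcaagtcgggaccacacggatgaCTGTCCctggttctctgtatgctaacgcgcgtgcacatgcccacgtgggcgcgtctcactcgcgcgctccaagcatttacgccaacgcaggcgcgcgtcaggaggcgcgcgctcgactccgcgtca
Grin2c: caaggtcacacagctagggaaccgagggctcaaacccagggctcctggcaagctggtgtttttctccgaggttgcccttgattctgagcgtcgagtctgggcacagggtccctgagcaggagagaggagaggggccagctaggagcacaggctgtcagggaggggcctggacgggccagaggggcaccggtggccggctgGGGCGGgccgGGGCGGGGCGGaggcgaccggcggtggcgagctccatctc
Gria2: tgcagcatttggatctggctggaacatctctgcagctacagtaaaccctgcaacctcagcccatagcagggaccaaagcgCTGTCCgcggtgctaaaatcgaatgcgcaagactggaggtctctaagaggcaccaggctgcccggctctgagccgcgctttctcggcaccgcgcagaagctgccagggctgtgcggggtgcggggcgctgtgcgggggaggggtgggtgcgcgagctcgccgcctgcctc

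Grin1 held 1 match to GGACAG, on the opposite strand, 126 to 121 bases before its start, and no GC box. Gria2 also held 1 match to GGACAG, 170 to 165 bases before its start and likewise on the opposite strand, and no GC box. Grin2c held 3 GC boxes, between 50 and 30 bases before its start, of which the second and the third share 1 base. Of 32536 distinct upstream windows of this length in the table, 33.0% held a GC box, 18.8% GGACAG, 5.74% CAGCACC and 3.79% TGCTGAC. Neither CAGCACC nor TGCTGAC was found letter for letter in the windows of the 8 genes, and matches with a changed base were not searched. The Gria2 window reads CTGTCCgcggtgcta, so its opposite strand holds TAGCACC close before GGACAG. That differs from the left part CAGCACC at 1 base, so the absence of an exact match does not mean that Gria2 lacks a left part. Of the 5 windows not printed, Grin2d held 1 match to GGACAG, Grik4 held 1 GC box and Grik5 held 2. A match is a description of letters and not of a bound site.

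Among the AMPA genes, Gria2 and Gria3 were the abundant ones, and neither passed the test. Gria2 measured 193 and 244 CPM in the KO libraries (replicates 1 and 2) against 138 and 189.5 CPM in the WT libraries. Both KO values lay above both WT values, by 193 against 189.5 CPM at the nearest, and the log2 fold change was 0.41 (SE 0.18, adjusted p of 0.400 in edgeR). Without WT replicate 1 it was 0.19 and without WT replicate 2 it was 0.66, with edgeR adjusted p-values of 0.0613 to 0.934 over the fits that left out a library.

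Gria3 varied more between libraries of a genotype than between genotypes. It measured 80.0 and 198 CPM in the KO libraries (replicates 1 and 2) against 101.5 and 289 CPM in the WT libraries, so both libraries numbered 2 lay above both libraries numbered 1. Replicate 2 was 2.48 times replicate 1 in KO and 2.84 times in WT. The groups overlapped (log2 fold change -0.49 with an SE of 0.51 and an adjusted p of 0.745 in edgeR), and the value was 0.0092 without KO replicate 1, 0.45 without WT replicate 2 and -1.29 without KO replicate 2. Between libraries of the same number, KO was the lower in both cases (80.0 against 101.5 CPM and 198 against 289 CPM). Gria4 was too low to be tested, with 2.5 and 6 fragments in the KO libraries against 5 and 9.99 in the WT libraries.

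The share of Gria2 in the AMPA class followed the spread of Gria3. Gria2 gave 59.1% and 43.4% of the FPKM summed over the 3 AMPA genes in KO and 45.1% and 30.8% in WT. The groups overlapped, and the summed AMPA level, at 39.9 and 66.6 FPKM in the KO libraries against 36.8 and 74.9 FPKM in the WT libraries, overlapped too.

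Grik5 was the main kainate gene in every library, and its level was nearly the same in 3 of the 4. Grik5, whose subunit needs a partner to form a channel, measured 107 and 78.0 CPM in the KO libraries (replicates 1 and 2) against 79.5 and 77.9 CPM in the WT libraries. Only KO replicate 1 stood apart, and the log2 fold change of 0.23 (SE 0.17, adjusted p of 0.609 in edgeR) became -0.02 without it. Grik5 gave 86.5% to 90.8% of the FPKM summed over the 3 kainate genes.

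The remaining kainate genes were low. Grik2, the channel-forming subunit gene, measured 4.56 and 3.76 CPM in the KO libraries against 6.18 and 6.24 CPM in the WT libraries, with 24 and 15 fragments in KO and 32 and 27 in WT (log2 fold change -0.59 with an SE of 0.42 and an adjusted p of 0.609 in edgeR). Both KO values lay below both WT values on this scale, whereas the authors' FPKM of 1.46 and 1.72 in KO and 1.74 and 1.65 in WT overlapped. Grik4, a second partner-dependent subunit gene, measured 4.95 and 6.02 CPM in the KO libraries against 2.12 and 3.47 CPM in the WT libraries, from 26, 24, 11 and 15 fragments in the same order of libraries. Its KO values lay above its WT values (log2 fold change 0.98 with an SE of 0.49 and an adjusted p of 0.465 in edgeR), and the change did not pass the test. Per length, Grik5 exceeded Grik2 by 9.81 to 16.3 times over the 4 libraries.

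**Figure D2:**
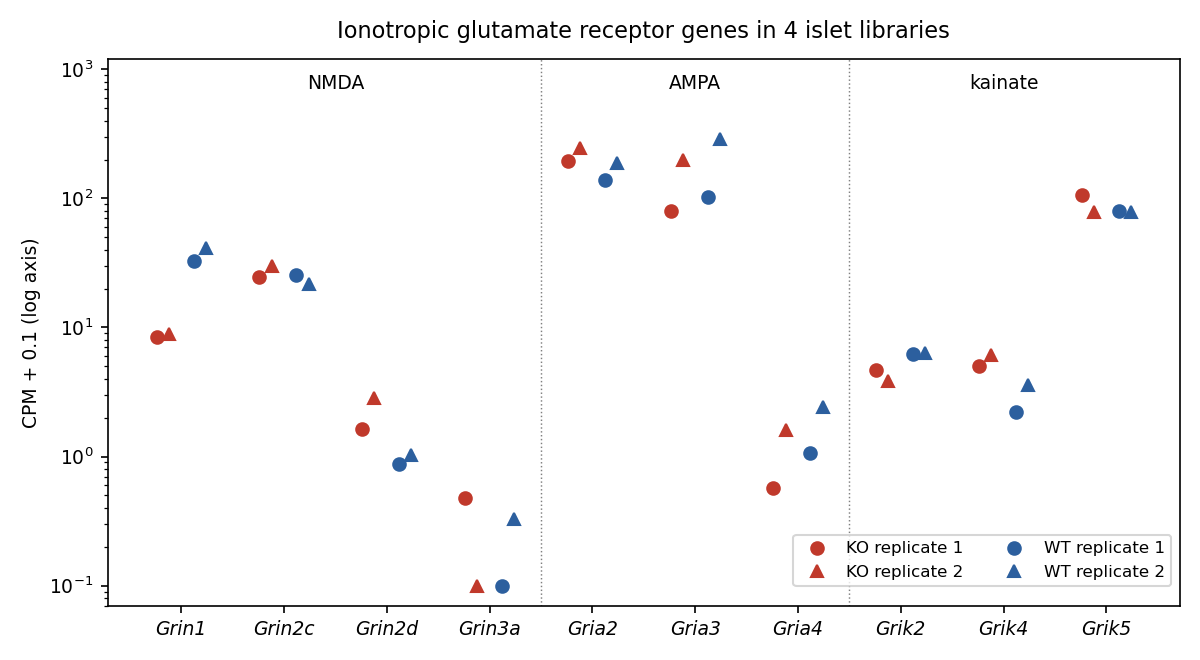
Points give the CPM plus 0.1, on a log axis, of the 10 receptor genes in KO (red) and WT (blue) replicates 1 (circles) and 2 (triangles); points at 0.1 are libraries with no fragment. Grin1 shows the wide gap between the groups (8.37 and 8.78 against 32.8 and 40.9 CPM), and Gria3 is split by replicate number.

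Counted over the family, 7 of the 10 genes were tested and 1, Grin1, was called, lower in KO. Over all genes tested, 0.227% were called in either direction and 0.0938% lower in KO. On the log2 scale 3 of the 7 lay below 0 and 4 above, with a median of 0.20 beside 0.0046 over all genes tested. CPM did not overlap between the groups for 4 of the 7 (Grin1 and Grik2 lower, Gria2 and Grik4 higher), and the same held for 44.9% of all genes tested (22.2% lower and 22.7% higher), so that count is near the background. Because the family was chosen with this comparison known, nothing is read from these counts.

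**Figure D3:**
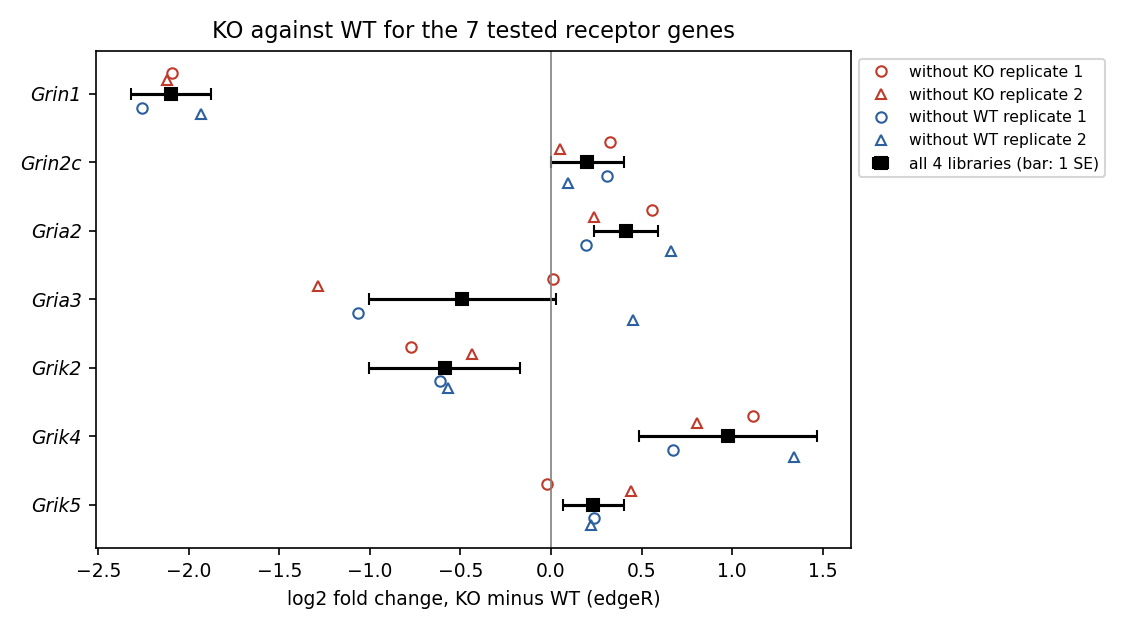
Black squares give edgeR's log2 fold change, KO minus WT, with bars of 1 SE for the 7 tested receptor genes, and open symbols the same value after leaving out 1 library. Grin1 stays between -2.26 and -1.93, while Gria3 ranges from -1.29 to 0.45 and Grik5 from -0.02 to 0.44.

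The order of levels per length put Gria3 (16.2 to 51.4 FPKM over the 4 libraries), Gria2 (16.6 to 28.9 FPKM) and Grik5 (16.9 to 23.8 FPKM) first, and these overlapped. Grin1 (1.80 to 9.39 FPKM) and Grin2c (4.21 to 5.61 FPKM) followed, below all of the first 3 and overlapping each other. Grik2 (1.46 to 1.74 FPKM) came next and did not overlap its neighbours. Grik4 (0.383 to 0.956 FPKM), Gria4 (0.0740 to 0.553 FPKM) and Grin2d (0.118 to 0.415 FPKM) overlapped, and Grin3a (0 to 0.0519 FPKM) lay below these without overlap.

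The genes nearest to Grin1 in pattern over the 4 libraries were Ovol2, Dlk1, Plk3, Ust and ZFP953. Nearness was the Euclidean distance of log2(CPM + 1) centred on each gene's mean, among 12254 tested genes with a mean of at least 1 CPM and no predicted name, and the distances were 0.301, 0.393, 0.432, 0.468 and 0.484 in that order, beside a median of 2.03. Dlk1 measured 3.23 and 3.01 CPM in the KO libraries against 15.4 and 13.2 CPM in the WT libraries, and Plk3 3.99 and 4.52 CPM in the KO libraries against 13.9 and 15.3 CPM in the WT libraries. Both were low in both KO libraries, as all 5 genes were, which follows from choosing them by likeness to Grin1. None of the 5 passed the test (edgeR adjusted p = 0.0820 for Dlk1 and 0.114 for Plk3). Ovol2 had 1 and 0 fragments in the KO libraries against 12 and 17 in the WT libraries. ZFP953 had 0.01 and 0.1 in the KO libraries against 22.75 and 18.13 in the WT libraries. Neither reached the count filter in a KO library, so both were tested only through their WT values. Their log2 fold changes of -4.59 and -7.33 were larger decreases than that of Grin1 (-2.10), and the added 1 CPM shrinks such differences near 0. With 4 libraries, such a distance describes the libraries only.

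Of 10 beta cell markers, all tested, 8 lay below 0 on the log2 scale and 2 were called lower, Mafa and Nkx6-1, which encode transcription factors, where 6301 of all 12789 genes tested lay below 0 and 0.0938% were called lower. Mafa measured 15.0 and 5.02 CPM in the KO libraries against 110 and 120 CPM in the WT libraries, and Nkx6-1 173 and 187 CPM in the KO libraries against 347 and 327 CPM in the WT libraries. The 2 markers above 0, named after their values were seen, were Iapp and Slc30a8. Iapp measured 10597 and 11705 CPM in the KO libraries against 7817 and 7683 CPM in the WT libraries. Slc30a8 measured 1492 and 1466 CPM in KO against 1186 and 1316 CPM in WT. Both lay higher in KO without overlap, and neither was called. The beta cell markers summed to 45055 and 46598 CPM in the KO libraries against 63713 and 47029 CPM in the WT libraries, so the sum of WT replicate 2 lay close to the KO sums. Of 5 alpha cell markers, all tested, 4 lay above 0 and none was called. They summed to 48085 and 60650 CPM in the KO libraries against 41982 and 44120 CPM in the WT libraries. Both KO sums lay above both WT sums.

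Of 6 delta, PP and epsilon cell markers, all tested, 4 lay above 0 and 1 was called higher, where 0.133% of all genes were. This was Ppy, which encodes pancreatic polypeptide, at 1074 and 801 CPM in the KO libraries against 375 and 348 CPM in the WT libraries (log2 fold change 1.37 with an SE of 0.16 and an adjusted p of 0.0348 in edgeR). The list summed to 2311 and 2233 CPM in the KO libraries against 2140 and 1685 CPM in the WT libraries, without overlap. That gap depended on Ppy, and without Ppy the sums overlapped. The delta cell hormone gene Sst lay below 0 (log2 fold change -0.38), at 870 and 1130 CPM in the KO libraries against 1491 and 1117 CPM in the WT libraries. Of 6 immune cell markers 4 were tested, all above 0 and none called, and the list summed to 75.5 and 60.7 CPM in the KO libraries against 47.1 and 40.4 CPM in the WT libraries, also without overlap. That gap depended on C1qa, named here after its values were seen, and without C1qa the sums overlapped. C1qa measured 28.9 and 34.9 CPM in the KO libraries against 19.3 and 19.2 CPM in the WT libraries. The other tested immune markers, Ptprc, C1qb and Lyz2, overlapped between the groups. The 6 acinar cell markers were all tested and all below 0 with none called, and their sums of 2780 and 5530 CPM in the KO libraries against 6125 and 3839 CPM in the WT libraries overlapped. The sums of mesenchymal cell markers (1195 and 1052 CPM in KO against 1843 and 794 CPM in WT) and of endothelial cell markers (689 and 597 CPM in KO against 661 and 547 CPM in WT) overlapped as well, and none of these markers was called. No marker of these lists found in the table was at 0 in all 4 libraries. The part of these shifts in the Grin1 value was not tested.

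None of the tested markers of neurons and Schwann cells, which also use glutamate receptors, was called. Of 9 neuron markers 8 were tested, 6 of them above 0 on the log2 scale and none called, and they summed to 143 and 221 CPM in the KO libraries against 120 and 205 CPM in the WT libraries. The 8 Schwann cell markers, of which 6 were tested and none was called, summed to 53.0 and 48.5 CPM in the KO libraries against 51.3 and 44.6 CPM in the WT libraries. No marker of either list was at 0 in all 4 libraries, and Chat was at 0 in KO replicate 2.

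Outside the 10 genes, the other glutamate receptor genes described here had few fragments. The 7 ionotropic genes Grin2a, Grin2b, Grin3b, Gria1, Grik1, Grik3 and Grid1 had at most 7 fragments in any library and none was tested. The 8 metabotropic receptor genes, which signal through G proteins, had at most 10 fragments and none was tested either.

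Of 63 tested genes in the other lists of glutamate signalling, 1 was called, lower in KO (0.0938% of all genes tested were). This was Gad1, which turns glutamate into GABA, at 47.0 and 37.4 CPM in the KO libraries against 134.7 and 124 CPM in the WT libraries (log2 fold change -1.62 with an SE of 0.15 and an adjusted p of 0.0253 in edgeR). Both KO libraries lay far below both WT libraries, as for Grin1, and limma on log2(FPKM + 1) did not call it (adjusted p = 0.170, with 1.44e-11 to 0.471 over the settings that kept all libraries). Glul, the glutamine synthetase gene and one of the genes of glutamate metabolism with a high level, measured 610 and 602 CPM in the KO libraries against 496 and 464 CPM in the WT libraries (log2 fold change 0.34 with an SE of 0.11 and an adjusted p of 0.294 in edgeR). Its KO values lay above its WT values without passing the test. On the log2 scale 4 of the 9 tested genes of this list lay above 0 and 5 below. Over the 7 lists with a tested gene, 43 of the 63 lay below 0, with a median of -0.08, beside 6301 of all 12789 genes tested and their median of 0.0046.

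Genes for subunits and proteins that accompany the receptors showed no called member. Of 10 tested auxiliary subunit and assembly genes 7 lay below 0 on the log2 scale (median -0.06), and the 2 with the highest FPKM were Cnih1, a cornichon that escorts AMPA receptors, at 0.02 ± 0.14 SE, and the hydrolase gene Abhd6 at -0.03 ± 0.27 SE. Of 20 tested scaffold and trafficking genes 14 were negative (median -0.08), with Dlg1 at -0.09 ± 0.11 SE and Lin7c at -0.07 ± 0.13 SE. The list of transporters of glutamate and related amino acids had 5 tested genes, Slc1a4, Slc1a5, Slc7a11, Slc38a1 and Slc38a2. Of these 3 were negative (median -0.08), with the amino acid transporter genes Slc38a2 at -0.35 ± 0.14 SE and Slc1a5 at 0.12 ± 0.26 SE. The glutamate uptake genes Slc1a1, Slc1a2, Slc1a3, Slc1a6 and Slc1a7 and the vesicular genes Slc17a6, Slc17a7 and Slc17a8 were too low to be tested.

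Genes for the NMDA co-agonists, for RNA editing and for REST were without a call as well. Of 6 tested genes for serine and glycine 3 were negative (median -0.26), and Srr, which makes D-serine, stood at 0.01 ± 0.18 SE and Shmt2 at 0.03 ± 0.26 SE. Adarb1, the enzyme that edits Gria2 RNA, measured 83.1 and 70.7 CPM in the KO libraries against 101 and 125 CPM in the WT libraries (log2 fold change -0.55 with an SE of 0.15 and an adjusted p of 0.229 in edgeR). Its KO values lay below its WT values without passing the test, and Adar stood at 0.17 ± 0.12 SE. A list of REST, its cofactors and the separate repressor gene Insm1 had 10 tested genes, of which 9 lay below 0 on the log2 scale (median -0.08). Kdm1a stood at -0.09 ± 0.13 SE and Insm1 at 0.03 ± 0.14 SE. Rest itself is named after its values had been looked at, with 13.5 and 11.3 CPM in the KO libraries against 19.9 and 10.6 CPM in the WT libraries, and the groups overlapped.

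**Figure D4:**
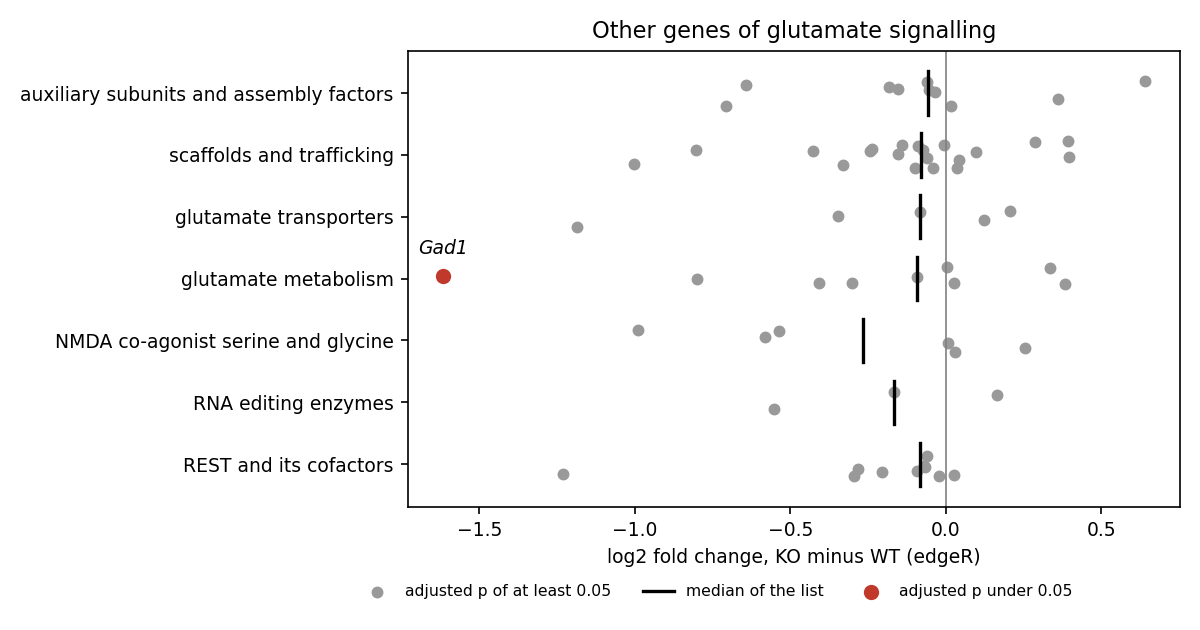
Points give edgeR's log2 fold change, KO minus WT, of the 63 tested genes in 7 lists of glutamate signalling outside the 10 receptor genes, and black lines the list medians. The list medians lie between -0.26 and -0.06, and only Gad1 (red, -1.62) has an adjusted p under 0.05.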

How the data were processed

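RNA of islet pools from 2 KO and 2 WT libraries was depleted of ribosomal RNA, made into strand-specific libraries and sequenced as paired ends of 150 bases, per the labels' protocols. The submitters' processing notes name cutadapt 1.9.3, HISAT2 2.0.4, Cufflinks, Cuffdiff and the build mm10. The table the authors deposited held FPKM values and estimated counts per gene, per the file headers. These estimated counts were scaled per library by the authors: 93.9% to 94.4% of the low values lay within 0.1 of multiples of a unit that differed by library (0.901 and 1.15 for KO, 0.901 and 1.09 for WT). Fragments given in the text are estimated counts divided by that unit.

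Counts of symbols with several rows (79) were summed, rounded to whole numbers, filtered with filterByExpr (2.13 CPM in at least 2 libraries), normalised with TMM and tested over 12789 genes with edgeR 4.0.16 in R 4.3.3, two-sided, genotype as the only term, with Benjamini-Hochberg adjustment. Alternatives used limma 3.58.1 on log2(FPKM + 1), DESeq2 1.42.0 and other settings. The common biological coefficient of variation was 16.0%. In simulated counts for KO against WT (12789 genes), edgeR found 13.4% of true 1.5-fold changes, 56.7% of 2-fold changes and 95.5% of 4-fold changes. The changed genes left out those of lowest count, and the simulated spread followed the trend over genes. These shares may therefore not hold for genes with few fragments, such as Grik4, or a wide spread, such as Gria3. limma found 92.4% of 4-fold changes in that simulation but called 0 genes in the data. No p was adjusted over the 10 genes.

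The members, gene lists, markers and tests were chosen with earlier results of these data known, and the promoter motifs after the values of the 10 genes had been seen. Genes named are the 10 members, called members of each pathway list or else its 2 tested members of highest mean FPKM, the 5 genes nearest to Grin1, and genes given as chosen after their values were seen. Some genes of these lists are not reported here. Lists of cell type markers served as description only. Gene positions are from GENCODE on GRCm38 (mm10).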

Additional observations from a re-analysis of the deposited data

How the results depend on the processing

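With 2 libraries per group, depth and spread limit what can be called, and genes with few fragments (Grin2d, Grin3a, Gria4) cannot be compared. Against 29 genes called, DESeq2 called 154, edgeR with a replicate block 214 and limma on log2(FPKM + 1), on log2(FPKM + 0.1) or without a filter 0 (with 1367, 1348 and 1541 genes at an unadjusted p under 0.05, against 1606 in edgeR and 944 in DESeq2). Leaving out 1 library gave 10 (without KO replicate 2) to 245 genes (without WT replicate 2), and these fits leave 1 library in a group, assumed to vary like the others. The cause of these differences was not tested. The 1 receptor gene and the 1 pathway gene called, Grin1 and Gad1, were 0 and 0 in the 3 limma fits, and the receptor count was 0 to 1 when a library was left out. For Grin1 the value was -1.68, -2.08 and -1.68 in those limma fits (adjusted p = 0.231, 0.233 and 0.471), against 1.86e-06 in DESeq2, and -2.26 to -1.93 when a library was left out. Leaving out 1 library gave -1.29 to 0.45 for Gria3, -0.024 to 0.44 for Grik5, -0.22 to 0.16 for Abhd6, -0.015 to 0.037 for Cnih1, -0.18 to 0.20 for Insm1, -0.22 to 0.0080 for Kdm1a, -0.22 to 0.086 for Lin7c, -0.033 to 0.088 for Shmt2, -0.010 to 0.26 for Slc1a5 and -0.12 to 0.11 for Srr. Directions also turned for Abhd6 (0.0018 in each limma fit), Dlg1 (0.12 in each) and Srr (-0.0039 without a filter on counts). The replicate numbers are not labelled as pairs, and deviations of same-numbered libraries correlated at 0.159 over genes. With the replicate block Grin1 stood at -2.09 (edgeR adjusted p = 0.00362), and Gria2 at 0.42 and Gria3 at -0.45 with adjusted p-values of 0.0730 and 0.0728.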

Other observations

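The split of Gria3 by replicate number was uncommon: 44 of 12789 tested genes (0.344%) were at least 2 times higher in replicate 2 than in replicate 1 in both genotypes, and 98 were at least 2 times lower. Vip, the neuropeptide gene of the neuron list, chosen here after its values were seen, was among the former, at 24.7 CPM (replicate 1) and 81.3 CPM (replicate 2) in KO, and at 28.4 and 108 CPM in WT in that order. Within each number Gria2 was higher in KO (193 against 138 CPM and 244 against 189.5 CPM). What the replicate numbers stand for is not given in the labels.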
